A study of Mus musculus with 6 samples.

Results

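The genes described here are 46 genes of the cell cycle and of DNA replication, picked by symbol from known roles in the cell cycle, with earlier results of these data known, out of 24940 genes in the table of expression values. They were read in bone marrow-derived macrophages (BMMs) of the mouse, which serve as osteoclast precursors. The 3 conditions were no RANKL (-R), RANKL (+R) and RANKL with the leaf extract LE of Abeliophyllum distichum (R+LE), with 2 libraries each. RANKL was used at 100 ng/mL and LE at 10 μg/mL, and the 3 groups shared 3 days of culture with M-CSF at 30 ng/mL. The sample labels name C57BL/6 mice of 6 to 8 weeks, whereas the study's methods describe ICR mice, so the strain is uncertain. No label says that the 2 libraries of a condition came from separate animals or cultures, and p-values then measure only the spread between these libraries, which may be technical. All 46 members were found and all 46 passed the filter on low values, a mean of at least 0.5 RPKM (reads per kilobase of transcript, scaled to the mapped reads of the library), as did 11595 of the 24940 genes.

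A dividing cell passes through G1, copies its DNA in S phase and separates the copies in mitosis. D cyclins with Cdk4 and Cdk6, and then E cyclins with Cdk2, inactivate the RB proteins, and this frees E2F factors to switch on the replication genes. Later the MuvB complex with Mybl2 and Foxm1 switches on the mitosis genes, whose promoters often hold a CHR element and CCAAT boxes. M-CSF drives the division of macrophage precursors, while mature osteoclasts form by the fusion of precursors and do not divide.

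Promoters of 8 members are printed first because the results turn on the contrast between mitosis and replication genes. Each run is the 170 bases before the start site in RefSeq's annotation of mouse build GRCm38.p6, written 5′ to 3′ on the gene's own strand. Capitals mark any of 3 motifs, searched on both strands: the E2F-type letters TTTGGCGC or TTTCGCGC, the CHR-type letters TTTGAA or TTTAAA, and CCAAT. A match on the opposite strand is printed as its reverse complement, so a CCAAT box can read ATTGG, and where the pair of E2F-type words overlap they form a single stretch of capitals. The first 5 lines are mitosis genes and the last 3 are replication genes.
Ccnb1: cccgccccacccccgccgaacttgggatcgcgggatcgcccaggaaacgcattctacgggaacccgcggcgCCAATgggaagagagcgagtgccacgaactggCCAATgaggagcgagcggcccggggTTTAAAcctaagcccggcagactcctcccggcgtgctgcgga
Ccnb2: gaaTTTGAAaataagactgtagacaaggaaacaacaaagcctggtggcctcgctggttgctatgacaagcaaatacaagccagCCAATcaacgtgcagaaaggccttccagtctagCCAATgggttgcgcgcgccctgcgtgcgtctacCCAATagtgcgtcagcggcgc
Cdc20: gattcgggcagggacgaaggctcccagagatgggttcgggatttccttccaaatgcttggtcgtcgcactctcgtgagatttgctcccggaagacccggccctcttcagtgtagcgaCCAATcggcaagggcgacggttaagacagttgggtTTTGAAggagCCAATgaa
Cdk1: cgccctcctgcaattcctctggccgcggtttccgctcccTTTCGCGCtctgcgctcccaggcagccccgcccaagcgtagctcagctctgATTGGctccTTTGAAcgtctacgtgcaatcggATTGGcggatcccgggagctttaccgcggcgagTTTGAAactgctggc
Plk1: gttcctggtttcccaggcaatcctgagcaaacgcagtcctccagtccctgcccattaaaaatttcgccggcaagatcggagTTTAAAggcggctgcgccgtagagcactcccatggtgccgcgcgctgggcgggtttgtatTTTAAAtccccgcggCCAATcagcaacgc
Mcm5: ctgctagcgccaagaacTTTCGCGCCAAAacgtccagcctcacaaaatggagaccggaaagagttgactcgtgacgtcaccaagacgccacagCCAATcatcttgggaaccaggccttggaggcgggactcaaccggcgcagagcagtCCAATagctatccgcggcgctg
Mcm6: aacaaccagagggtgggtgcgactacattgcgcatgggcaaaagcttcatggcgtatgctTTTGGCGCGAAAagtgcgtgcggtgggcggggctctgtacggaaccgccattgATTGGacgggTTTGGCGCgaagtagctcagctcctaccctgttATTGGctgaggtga
Pcna: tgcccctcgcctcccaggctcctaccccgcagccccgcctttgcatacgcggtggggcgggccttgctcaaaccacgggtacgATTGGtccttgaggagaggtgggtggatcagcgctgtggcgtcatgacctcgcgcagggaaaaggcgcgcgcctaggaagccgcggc

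The windows lie at chr13:100786487-100786656, minus strand, for Ccnb1, at chr9:70421555-70421724, minus strand, for Ccnb2, at chr4:118437344-118437513, minus strand, for Cdc20, and at chr10:69352913-69353082, minus strand, for Cdk1. The window of Plk1 is chr7:122159265-122159434, plus strand, that of Mcm5 is chr8:75109339-75109508, plus strand, that of Mcm6 is chr1:128359706-128359875, minus strand, and that of Pcna is chr2:132253181-132253350, minus strand. In Cdc20 the CHR-type word begins 18 bases before the start site and CCAAT words begin at 53 and 8 bases. In Ccnb1 the CHR-type word begins at 42 bases, with CCAAT words at 99 and 67 bases. In Ccnb2 the CCAAT words stand at 87, 54 and 21 bases. The CHR-type word printed for Ccnb2 begins at 167 bases, and another begins 4 bases after the start site, outside the printed window. Mcm6 holds E2F-type words at 110, 106 and 47 bases and Mcm5 at 153 and 149 bases, whereas the window of Pcna holds a CCAAT word and neither of the other motifs.

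The search covered promoters of 300 bases in RefSeq's table, of which 250 lie before the start site, and 36 of the 46 members had an entry. Of 12 mitosis members with an entry, 11 held a CHR-type word (91.7%) and 11 held CCAAT (91.7%), and 1 held an E2F-type word (8.33%). Of 11 replication members, 4 held an E2F-type word (36.4%), 4 a CHR-type word (36.4%) and 9 CCAAT (81.8%). Over all 32851 promoters of the same length in the table, the shares were 0.813% for the E2F-type, 27.6% for the CHR-type and 37.4% for CCAAT. Over the 8908 promoters of genes tested for expression they were 1.72%, 19.0% and 39.1%. A match describes letters in a window, and it does not show that a factor binds there.

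The libraries held between 29390213 and 34846383 mapped reads, recovered from the RPKM steps, and single members had between 181 and 25102 reads in a library, with a median of 2276. The Rn45s entry, which covers a ribosomal RNA precursor, took 4.97% to 6.83% of the reads on genes in -R, 10.9% to 11.1% in +R and 11.2% to 13.5% in R+LE. Summed over 9 macrophage markers the level was 7275 to 7851 RPKM in -R, 3145 to 3992 in +R and 4142 to 4695 in R+LE, and no marker was at 0. Summed over 9 osteoclast markers it was 43.4 to 45.0 RPKM in -R, where 2 markers were listed at 0, 1894 to 2161 in +R and 340 to 393 in R+LE. Macrophage markers were thus present in all libraries, and the osteoclast sum was higher in both RANKL conditions than in -R. Most of the osteoclast sum in -R was Acp5 (33.6 and 34.8 RPKM), and 5 of the 9 markers were under 0.5 RPKM there. Most of the macrophage sum was Lyz2 (5062 and 5571 RPKM in the -R libraries), and the 9 markers did not move together. Mean Itgam was 70.5 RPKM without RANKL and 90.2 with RANKL alone (limma, adjusted p = 0.085), and Tyrobp overlapped between these conditions. The other macrophage markers were lower with RANKL at an adjusted p below 0.05. With LE added, only Mertk and Cd14 changed at that threshold, both upward, and Csf1r, Cd68 and Tyrobp had lower means. The part of the cell makeup in the changes below was not tested. In bulk RNA, fewer cells of a type and less RNA per cell cannot be told apart.

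Most members that passed between +R and -R were higher in +R, and a few were lower. Between +R and -R, 27 of the 46 members were higher and 6 were lower at an adjusted p below 0.05 (limma, Benjamini-Hochberg over all genes tested), and 13 did not pass. Over all genes tested, 23.9% were higher and 21.5% were lower. Of the members, 16 were higher and 4 were lower by at least 2-fold, against 6.58% and 8.92% of all genes tested. The median log2 fold change was 0.63 over the members and 0.05 over all genes tested. All 15 mitosis genes were among those that rose. Of the 14 replication genes, 4 rose, 1 fell and 9 did not pass. Their share that rose was near the 23.9% over all genes tested. The members that fell were Ccnd1, Ccnd2, Cdkn1a, Ccne1, E2f2 and Pcna.

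Between R+LE and +R, 5 of the 46 members were higher, none was lower and 41 did not pass with limma, against 5.19% higher and 6.86% lower over all genes tested. At an unadjusted p below 0.05, 2 were lower, and voom on the recovered reads also gave 5 higher and 0 lower. None was at least 2-fold higher or lower, where the shares over all genes were 1.46% and 1.78%. The 5 that rose with LE were Ccnd1, E2f2, Cdkn1a, Ccne1 and Ccnd3, and the first 4 of these had fallen with RANKL, in a comparison that uses the same +R libraries. Between R+LE and -R, 24 members were higher and 3 were lower, against 15.3% and 19.0% of all genes, and 14 were higher and 2 were lower by at least 2-fold, against 3.92% and 6.36%. The 3 comparisons share libraries and are not independent of each other. With 2 libraries a group, complete separation of 2 groups is common. Over all genes tested, the +R libraries were separate from the -R libraries and higher in 40.3%, and separate and lower in 35.0%. The shares were 19.5% and 29.5% for R+LE against +R, and 31.2% and 34.3% for R+LE against -R.

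**Figure D1:**
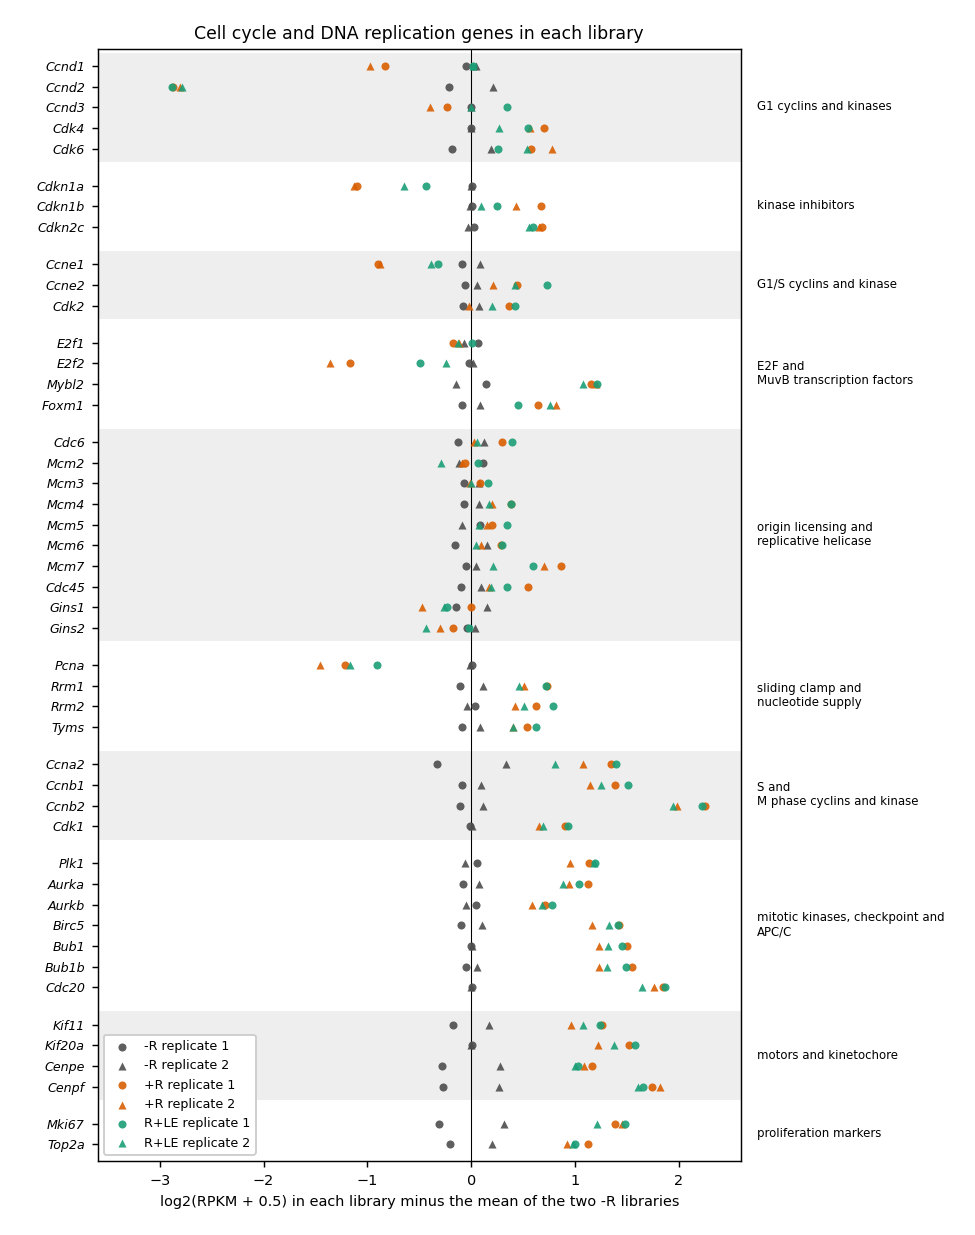
Each row is a member, grouped by role, and each point is a library. The horizontal axis is log2(RPKM + 0.5) minus the mean of the -R libraries of that gene, with circles for replicate 1 and triangles for replicate 2. The mitosis genes of +R and R+LE lie to the right of both -R points in every row, as do 40.3% of all genes tested for +R and 31.2% for R+LE, while Ccnd2, Cdkn1a, Ccne1, E2f2 and Pcna lie to the left.

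The D cyclins are the regulatory partners of Cdk4 and Cdk6 and carry growth factor signals to the cell cycle. Ccnd1 stood at 157 and 168 RPKM in -R, at 91.3 and 82.7 in +R, and at 164 and 165 in R+LE. The +R libraries lay below all others, and the R+LE libraries lay between the -R libraries. The log2 fold change of Ccnd1 was -0.90 in +R against -R (SE 0.15, adjusted p = 0.00017, limma) and 0.92 in R+LE against +R (SE 0.15, adjusted p = 0.00077). Between R+LE and -R it was 0.02 (95% interval -0.30 to 0.34). Of the exon bases of Ccnd1, 1100 are shared with a gene on the opposite strand, whose reads the counting did not separate.

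Ccnd2 behaved differently from Ccnd1. It was at 9.15 and 12.4 RPKM in -R, at 1.02 and 1.10 in +R, and at 1.02 and 1.12 in R+LE. Both RANKL conditions lay far below -R and overlapped each other. Ccnd2 fell by 2.84 on the log2 scale with RANKL (adjusted p = 3.7e-09), the largest change of any member, and the difference between R+LE and +R was 0.01 with a 95% interval of -0.36 to 0.38. Ccnd3 was at 38.6 and 38.6 RPKM in -R, at 32.8 and 29.3 in +R, and at 49.2 and 38.7 in R+LE. The +R libraries were the lowest and the R+LE libraries were spread apart. Its log2 fold change was -0.31 in +R against -R, which did not pass (adjusted p = 0.11) but did in 3 of 17 alternatives, and 0.49 in R+LE against +R, which passed narrowly (adjusted p = 0.049) and did so in 8 of 17 alternatives.

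The kinase partners of the D cyclins moved the other way with RANKL. Cdk4 was at 56.7 RPKM in both -R libraries, at 92.4 and 84.4 in +R and at 83.0 and 68.2 in R+LE. Cdk6 was at 12.3 and 16.1 RPKM in -R, at 21.3 and 24.5 in +R and at 17.0 and 20.7 in R+LE. In both genes the +R libraries were highest and the -R libraries lowest, without overlap. Cdk4 rose by 0.63 on the log2 scale with RANKL (adjusted p = 0.0030) and Cdk6 by 0.68 (adjusted p = 0.0029). Without the first -R library, the value of Cdk6 was 0.49 and did not pass (adjusted p = 0.078). Between R+LE and +R the intervals were -0.55 to 0.09 for Cdk4 and -0.62 to 0.07 for Cdk6, so neither rise nor fall was established.

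The 3 kinase inhibitors split. Cdkn1a encodes p21, a target of p53 that binds cyclin-kinase complexes and also the sliding clamp. It was at 149 and 148 RPKM in -R, at 69.0 and 67.4 in +R, and at 110 and 94.4 in R+LE. The 3 conditions did not overlap, with R+LE between the others. Cdkn1a fell by 1.11 on the log2 scale with RANKL (adjusted p = 2.0e-05), rose by 0.57 in R+LE against +R (adjusted p = 0.019) and remained below -R by 0.54 in R+LE (adjusted p = 0.011). The rise with LE did not pass with no filter or in a fit of only the compared groups. It also did not pass when either -R or either +R library was left out. Over the 17 alternatives the rise ran from 0.47 to 0.68. The difference between R+LE and -R did not pass without the first or the second -R library, and ran from -0.65 to -0.43.

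Cdkn1b, which encodes p27, and Cdkn2c, which encodes p18 and blocks Cdk4 and Cdk6, rose with RANKL. Cdkn1b was at 6.27 and 6.21 RPKM in -R, at 10.2 and 8.56 in +R, and at 7.48 and 6.70 in R+LE. Cdkn2c was at 10.4 and 9.92 RPKM in -R, at 16.6 and 16.3 in +R, and at 15.6 and 15.2 in R+LE. For Cdkn2c the RANKL conditions lay together, while for Cdkn1b the R+LE libraries lay between the other groups. The rises with RANKL were 0.55 for Cdkn1b (adjusted p = 0.0053) and 0.67 for Cdkn2c (adjusted p = 0.00068) on the log2 scale. That of Cdkn1b was 0.43 and did not pass without the first +R library (adjusted p = 0.088). Between R+LE and +R the log2 fold change of Cdkn1b was -0.38 with an adjusted p of 0.11.

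Among the genes of the G1/S step, the E cyclins differed from each other. Ccne1 was at 9.62 and 10.9 RPKM in -R, at 5.27 and 5.32 in +R, and at 8.09 and 7.71 in R+LE. Ccne2 was at 10.8 and 11.8 RPKM in -R, at 15.5 and 13.2 in +R, and at 19.2 and 15.3 in R+LE. Ccne1 was lowest in +R and Ccne2 was lowest in -R. Ccne1 fell by 0.89 on the log2 scale with RANKL (adjusted p = 7.6e-05) and rose by 0.54 in R+LE against +R (adjusted p = 0.017). That rise did not pass with no filter, without either +R library or without the first R+LE library. Over the 17 alternatives it ran from 0.50 to 0.59. Ccne2 passed in 1 of the 3 comparisons, R+LE against -R, where it was higher by 0.58 (adjusted p = 0.0078). With no filter, or without the first -R library or the first R+LE library, it did not pass there either. Over the 17 alternatives Ccne2 ran from 0.42 to 0.74 in that comparison. Of its exon bases, 609 are shared with Ints8 on the opposite strand. Cdk2, the kinase partner of both E cyclins, was at 11.6 and 12.9 RPKM in -R, at 15.9 and 12.0 in +R and at 16.5 and 14.1 in R+LE, and did not pass in any comparison.

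The E2F and MuvB factors also went separate ways. E2f2, an activator of replication genes, was at 8.84 and 9.07 RPKM in -R, at 3.71 and 3.18 in +R, and at 6.24 and 7.52 in R+LE. The groups did not overlap and R+LE lay between the others. E2f2 fell by 1.26 on the log2 scale with RANKL (adjusted p = 4.5e-06) and rose by 0.90 in R+LE against +R (adjusted p = 0.00070). E2f1, the other activator among the members, was at 18.2 and 16.4 RPKM in -R, at 15.3 and 15.9 in +R and at 17.4 and 15.8 in R+LE. Its log2 fold change with RANKL was -0.15 (95% interval -0.44 to 0.14).

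Mybl2 and Foxm1, the partners of MuvB at mitosis promoters, rose with RANKL. Mybl2 was at 9.62 and 7.80 RPKM in -R, at 19.9 and 20.5 in +R, and at 20.8 and 18.9 in R+LE. Foxm1 was at 7.24 and 8.21 RPKM in -R, at 12.3 and 14.0 in +R, and at 10.7 and 13.4 in R+LE. In both genes the RANKL conditions overlapped each other and lay above -R. The rise was 1.18 for Mybl2 (adjusted p = 7.9e-06) and 0.73 for Foxm1 (adjusted p = 0.00099) on the log2 scale.

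**Figure D2:**
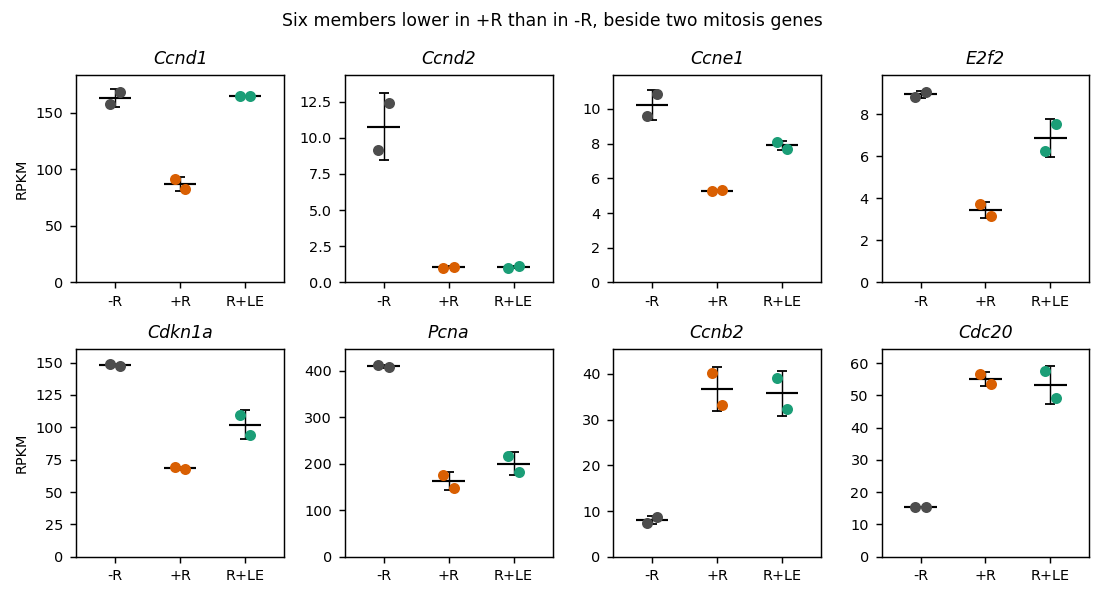
Points are single libraries in RPKM, horizontal bars are the mean and error bars the SD of the 2 libraries of each condition. Ccnd1, Ccne1, E2f2 and Cdkn1a are lowest in +R and higher in R+LE, Ccnd2 and Pcna are low in both RANKL conditions, and Ccnb2 and Cdc20 are high in both.

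The licensing and helicase genes load and start the Mcm helicase at replication origins. With limma, 9 of the 10 did not pass with RANKL, where over all genes tested 23.9% rose and 21.5% fell. At an unadjusted p below 0.05, limma gave 2 of the 10 as higher, and voom passed 2 as higher at an adjusted p. Cdc6 loads the Mcm complex, Mcm2 to Mcm7 form the ring, and Cdc45 with Gins1 and Gins2 complete the active helicase. Their median log2 fold change was 0.17 with RANKL and -0.02 in R+LE against +R. Mcm5 was at 63.4 and 56.0 RPKM in -R, at 68.6 and 66.2 in +R and at 75.9 and 62.9 in R+LE. Mcm6 was at 73.1 and 90.6 RPKM in -R, at 99.7 and 87.2 in +R and at 100.2 and 84.1 in R+LE. The spread between the libraries of a condition was as large as the distance between conditions in Mcm6.

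Among the 9 that did not pass with RANKL, the log2 fold change ran from -0.24 for Gins2 to 0.36 for Cdc45 (adjusted p = 0.070). The 95% intervals were -0.57 to 0.09 for Gins2, -0.41 to 0.25 for Mcm2, -0.27 to 0.34 for Mcm3 and -0.15 to 0.50 for Mcm5. Differences between these bounds remain possible. Mcm7 was the exception with limma. It was at 39.1 and 41.7 RPKM in -R, at 73.9 and 66.0 in +R and at 61.3 and 46.9 in R+LE. It rose by 0.78 on the log2 scale with RANKL (adjusted p = 0.00086), and in R+LE against +R it was at -0.38 (adjusted p = 0.16), or at -0.57 without the first R+LE library (adjusted p = 0.016). Annotated exons of Mcm7 share 236 bases with the microRNAs Mir25 and Mir93 and with Cops6 on the opposite strand.

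The sliding clamp Pcna, which holds DNA polymerases on their template, was the most abundant member per length. It was at 411 and 407 RPKM in -R, at 176 and 148 in +R, and at 217 and 182 in R+LE. The -R libraries lay far above the rest, and the lower R+LE library lay just above the higher +R library. Pcna fell by 1.34 on the log2 scale with RANKL (adjusted p = 1.1e-05) and was lower by 1.04 in R+LE than in -R (adjusted p = 0.00020), whereas R+LE against +R gave 0.30 (95% interval -0.06 to 0.66). The annotation holds Pcna pseudogenes, and reads could be shared with such copies.

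The genes for nucleotide supply rose modestly. Rrm1, the large subunit of ribonucleotide reductase, was at 25.2 and 29.4 RPKM in -R, at 45.6 and 38.9 in +R and at 45.1 and 37.5 in R+LE. Rrm2, its small subunit, was at 35.3 and 33.4 in -R, at 53.3 and 46.3 in +R and at 59.5 and 49.2 in R+LE. Tyms, which makes thymidylate, was at 11.6 and 13.1 in -R, at 18.1 and 16.4 in +R and at 19.3 and 16.4 in R+LE. In all 3 genes the RANKL conditions overlapped and lay above -R. The log2 rises with RANKL were 0.62 (adjusted p = 0.0039), 0.53 (adjusted p = 0.0096) and 0.47 (adjusted p = 0.014) in that order. These calls were fragile: without the first -R library they gave an adjusted p of 0.081, 0.060 and 0.13, and without the first +R library 0.050, 0.12 and 0.12, while that of Rrm2 also did not pass without the second -R library (0.093).

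The cyclins and kinase of S and M phase rose together, in 4 of 4 genes, where 23.9% of all genes tested rose. Ccnb2, a B cyclin that activates Cdk1 at mitosis, was at 7.38 and 8.70 RPKM in -R, at 40.1 and 33.2 in +R, and at 39.2 and 32.3 in R+LE. Ccnb1, the other B cyclin, was at 16.9 and 19.3 RPKM in -R, at 47.9 and 40.6 in +R, and at 52.3 and 43.7 in R+LE. Every library with RANKL lay above every library without it, a separation that 40.3% of all genes tested showed for +R and 31.2% for R+LE, and +R and R+LE overlapped. Ccnb2 was 4.34-fold higher in +R than in -R (95% interval 3.45 to 5.47, adjusted p = 3.1e-08), the largest rise of any member, and Ccnb1 was 2.40-fold higher (1.92 to 3.01, adjusted p = 6.8e-06).

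Cdk1, the kinase that drives entry into mitosis, was at 14.0 and 14.2 RPKM in -R, at 26.8 and 22.4 in +R and at 27.4 and 23.0 in R+LE. Ccna2, the A cyclin of S and G2 phase, was at 15.5 and 25.0 RPKM in -R, at 51.1 and 42.0 in +R, and at 52.5 and 34.8 in R+LE. The libraries of Ccna2 were spread more widely within a condition than those of Cdk1. Cdk1 was 1.72-fold higher with RANKL (adjusted p = 0.00049) and Ccna2 was 2.32-fold higher (adjusted p = 0.00032). Ccna2 shares 510 exon bases with Exosc9 on the opposite strand.

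All 7 genes of the mitotic kinases, the spindle checkpoint and the anaphase-promoting complex rose with RANKL, and 6 did so by at least 2-fold. Over all genes tested, 23.9% rose and 6.58% rose by at least 2-fold. Cdc20, the activator of the anaphase-promoting complex, was at 15.4 and 15.3 RPKM in -R, at 56.5 and 53.4 in +R, and at 57.4 and 49.0 in R+LE. It was 3.49-fold higher with RANKL (95% interval 2.83 to 4.31, adjusted p = 6.2e-08). The checkpoint genes Bub1 and Bub1b were 2.57-fold and 2.62-fold higher with RANKL, from means of 7.53 and 9.75 RPKM in -R to 20.3 and 26.5 in +R. In all 3 genes the libraries of R+LE and +R overlapped, and the difference between them did not pass.

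Plk1, a kinase of mitotic entry and of the spindle poles, was at 16.1 and 14.8 RPKM in -R, at 34.6 and 30.2 in +R and at 35.9 and 35.6 in R+LE, a 2.06-fold rise with RANKL. Birc5, or survivin, a subunit of the chromosomal passenger complex, was at 22.7 and 26.2 RPKM in -R, at 66.1 and 55.5 in +R and at 65.8 and 61.9 in R+LE, a 2.45-fold rise. Aurka, the kinase of the spindle poles, was 2.05-fold higher with RANKL. Aurkb, the kinase of the passenger complex, had the smallest rise of the mitosis genes, 1.57-fold (adjusted p = 0.0012), from 14.8 and 13.8 RPKM in -R to 23.7 and 21.8 in +R, with 24.9 and 23.2 in R+LE.

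The motor and kinetochore genes rose in 4 of 4 cases, each by at least 2-fold, as did 6.58% of all genes tested. Cenpf, a large kinetochore protein made in G2, was at 2.68 and 4.11 RPKM in -R, at 12.3 and 13.0 in +R and at 11.5 and 11.1 in R+LE. Cenpe, a motor that moves chromosomes to the spindle equator, was at 5.38 and 8.20 RPKM in -R, at 15.6 and 14.7 in +R and at 14.1 and 13.8 in R+LE. In both, the R+LE libraries lay slightly below the +R libraries, a difference that did not pass. Cenpf was 3.44-fold higher with RANKL (adjusted p = 4.2e-07) and Cenpe 2.18-fold (adjusted p = 5.8e-05). Kif11, the motor that separates the spindle poles, was 2.16-fold higher, and Kif20a, a motor of cytokinesis, was 2.59-fold higher. Kif20a shares 1271 exon bases with Cdc23 on the opposite strand.

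The proliferation markers followed the mitosis genes. Mki67, the antigen used to stain cycling cells, was at 22.5 and 34.9 RPKM in -R, at 74.1 and 77.8 in +R and at 79.0 and 65.6 in R+LE. Top2a, the topoisomerase that untangles sister chromosomes, was at 28.4 and 37.8 RPKM in -R, at 72.2 and 62.6 in +R and at 66.0 and 65.0 in R+LE. In both genes every library with RANKL lay above both -R libraries, as in 40.3% of all genes tested for +R and 31.2% for R+LE. Mki67 was 2.68-fold higher with RANKL (adjusted p = 1.6e-05) and Top2a 2.04-fold (adjusted p = 9.3e-05). In Mki67, Top2a and all mitosis genes but Plk1, Aurkb, Cdc20 and Kif20a, the first -R library was below the second. Summed over the mitosis genes, these libraries stood at 182 and 205 RPKM.

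The 15 mitosis genes thus rose with RANKL in every case, by 1.26 on the log2 scale at the median and by 0.65 to 2.12 over the genes. By at least 2-fold 13 of them rose, and over all genes tested 23.9% rose and 6.58% by at least 2-fold. In R+LE against +R none of the 15 passed with limma, at an adjusted or an unadjusted p below 0.05, and none with voom. Over all genes tested, 5.19% were higher and 6.86% lower there (limma, adjusted), shares at which few of 15 genes would pass. The log2 fold changes of the 15 ran from -0.15 to 0.14, with a median of 0.02. The 95% intervals of these differences reached from 0.670-fold, the lower end for Ccna2, to 1.36-fold at the upper end, and differences between these bounds remain possible. In R+LE against -R all 15 were higher, as were 15.3% of all genes tested, with a median of 1.37. Ccna2 did not pass there with no filter or without the first -R library, where its value was 0.77. The rise with RANKL passed for each of the 15 under all 17 alternatives.

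**Figure D3:**
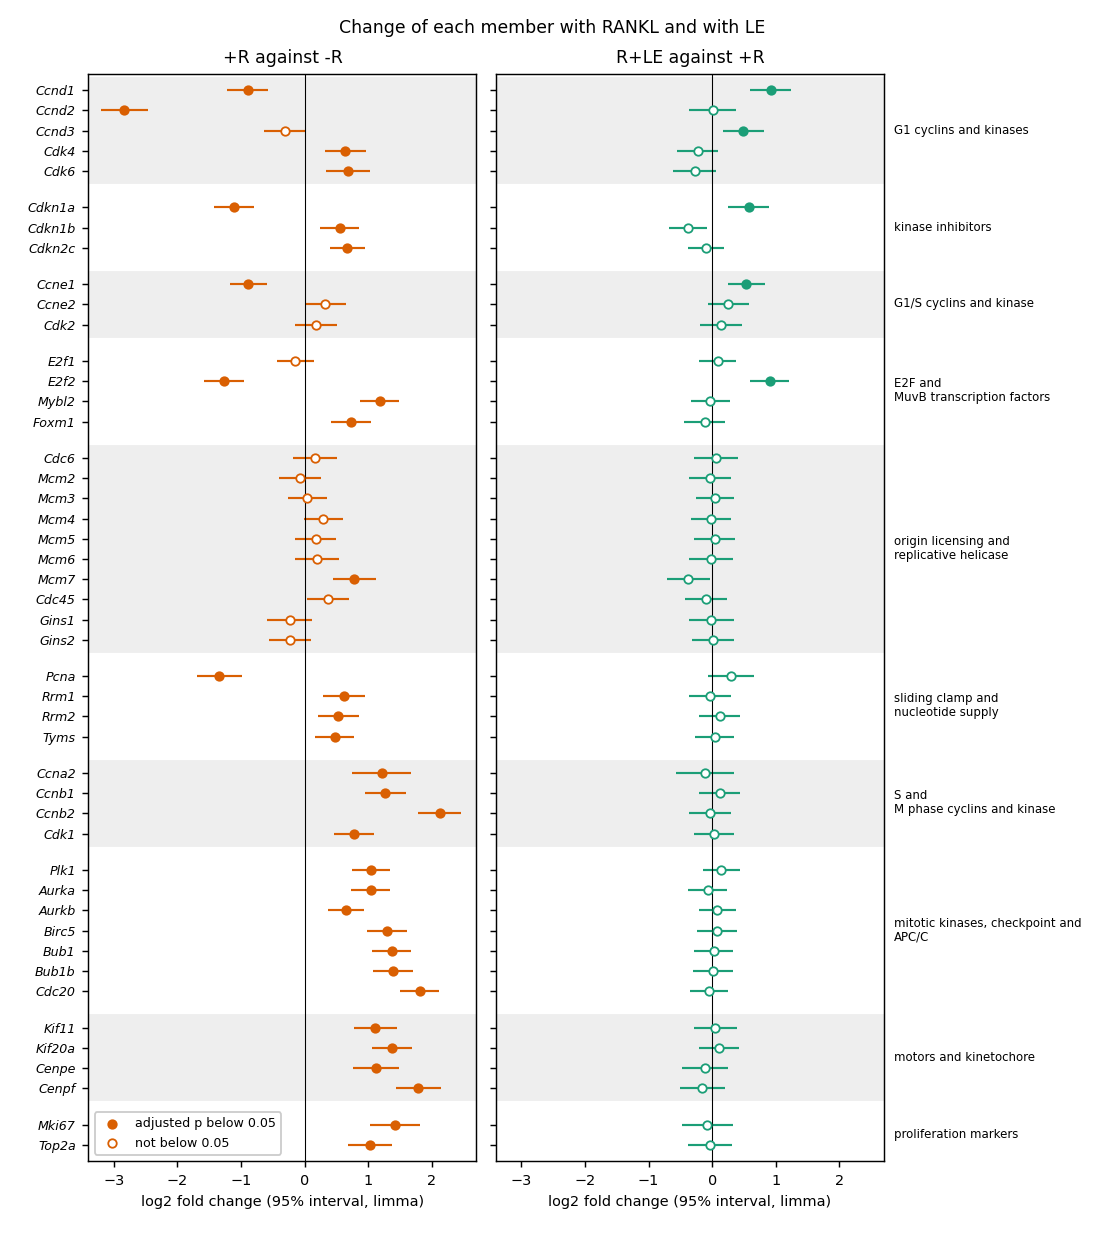
Points are log2 fold changes on the log2(RPKM + 0.5) scale and bars are 95% intervals from limma, for +R against -R on the left and R+LE against +R on the right. Filled points have an adjusted p below 0.05. On the left the mitosis genes and proliferation markers lie to the right of 0 and most helicase genes have intervals across 0, and on the right only Ccnd1, Ccnd3, Cdkn1a, Ccne1 and E2f2 are filled.

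Replication and mitosis genes were compared within each library. The median level of the 15 mitosis genes stood at 12.9 and 13.8 RPKM in -R, at 29.5 and 25.7 in +R, and at 28.3 and 24.9 in R+LE. That of the 14 replication genes stood at 31.9 and 31.0 RPKM in -R, at 42.5 and 36.7 in +R, and at 42.2 and 35.6 in R+LE. The ratio of the mitosis median to the replication median stood at 0.406 and 0.447 in -R, at 0.694 and 0.700 in +R, and at 0.672 and 0.701 in R+LE. The ratio was higher in each library with RANKL than in either library without it, and those of +R and R+LE overlapped. Of the 14 replication genes, 4 rose with RANKL, 1 fell and 9 did not pass, and the median log2 fold change was 0.19. Over all genes tested 23.9% were higher and 21.5% lower. The share of replication genes that rose was thus near that over all genes, and the share that fell was below it. These medians, sums and means are a description and were not tested.

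Other genes of the pathway, 160 in all and all past the filter, were read for the same contrast. Of 86 other mitosis genes, 70 rose with RANKL and none fell with limma, at an adjusted or an unadjusted p below 0.05. With voom none fell at an adjusted p and 1 did at an unadjusted p. Their median log2 fold change was 0.75, and over all genes tested 23.9% rose and 21.5% fell. Of 45 other replication genes, 11 rose, 2 fell and 32 did not pass, with a median of 0.26. With limma at an adjusted p, the share that rose was near that over all genes tested, and the share that fell was below it. At an unadjusted p below 0.05, limma gave 18 higher and 2 lower. With voom 15 were higher at an adjusted p and 20 at an unadjusted p, with 2 lower in each case. Shares over all genes were not computed for these counts. In 28 of the 45 the +R libraries were separate from -R and higher, and in 6 separate and lower. The shares over all genes tested were 40.3% and 35.0%. Within the spindle, kinetochore and cytokinesis list, 52 of 57 rose. In R+LE against +R, none of these mitosis or replication genes passed with limma in either direction, where 5.19% of all genes tested were higher and 6.86% lower. At an unadjusted p below 0.05 there were 3 of the mitosis genes, and voom passed 1 mitosis gene as higher. The RB, E2F, MuvB and inhibitor list was mixed, with 5 higher and 4 lower of 29 and a median of 0.02 with RANKL.

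The largest rises with RANKL among these other genes were in Aspm, a spindle pole protein, Cdkn3, a phosphatase that acts on cyclin-dependent kinases, and Ube2c, the ubiquitin-conjugating enzyme of the anaphase-promoting complex. Aspm was at 1.98 and 3.04 RPKM in -R, at 10.5 and 11.1 in +R and at 10.3 and 10.5 in R+LE. Ube2c was at 27.8 and 31.3 RPKM in -R, at 93.3 and 87.6 in +R and at 101 and 85.0 in R+LE. Their log2 fold changes with RANKL were 1.93 and 1.60, and that of Cdkn3 was 1.68, and in each case the RANKL conditions overlapped. In R+LE against -R, Aspm (1.87), Cdkn2a (1.75) and Cdkn3 (1.67) rose most. Cdkn2a, which encodes the inhibitors p16 and p19Arf, was low throughout, at 0.368 and 0.311 RPKM in -R, at 1.59 and 1.66 in +R and at 2.26 and 2.38 in R+LE.

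The largest falls with RANKL were in Dck, Mdm2 and Lin9. Dck, a kinase that salvages deoxycytidine, was at 57.9 and 62.8 RPKM in -R, at 22.9 and 20.6 in +R and at 26.6 and 23.6 in R+LE, and fell by 1.45 on the log2 scale. Mdm2, the ubiquitin ligase of p53 and itself a p53 target, was at 69.4 and 79.3 RPKM in -R, at 34.7 and 30.2 in +R and at 51.2 and 46.1 in R+LE. Mdm2 fell by 1.19 with RANKL (adjusted p = 1.0e-05) and rose by 0.58 in R+LE against +R (adjusted p = 0.017), the only 1 of the 160 to pass there, with R+LE between the other groups as in Cdkn1a. Its rise did not pass with no filter, without either -R library or without the second +R library. Over the 17 alternatives the rise ran from 0.48 to 0.68. Lin9, a MuvB subunit, fell by 0.57 (adjusted p = 0.011). This fall did not pass with no filter, without either -R library or without the second +R library. Over the 17 alternatives the log2 fold change of Lin9 ran from -0.79 to -0.35. In R+LE against -R, Dck (-1.25), the licensing factor Cdt1 (-0.66) and Mdm2 (-0.60) were lowest.

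**Figure D4:**
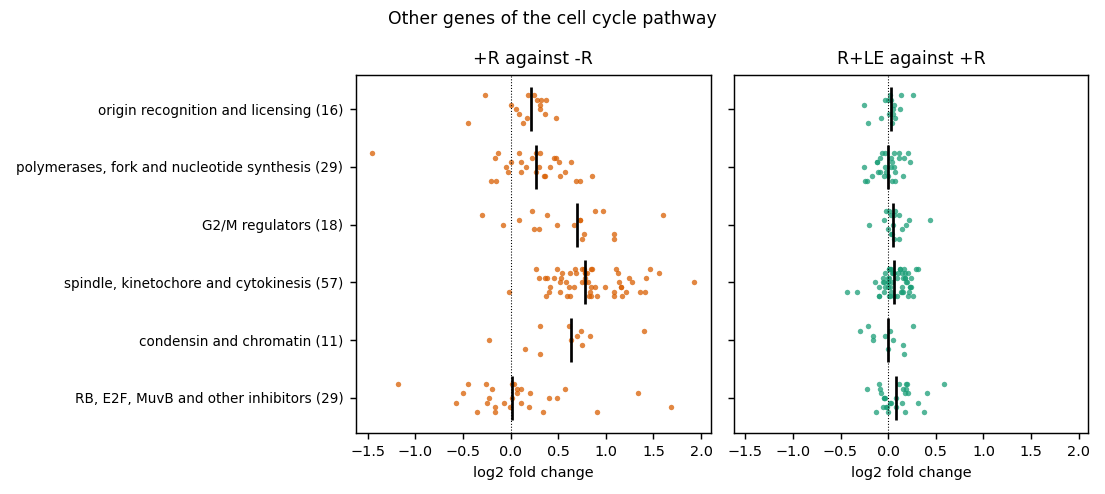
Points are log2 fold changes of the 160 other pathway genes by list, with the number of genes in parentheses, and the black bar is the median of each list. The left panel is +R against -R, where the mitosis lists lie to the right of 0, and the right panel is R+LE against +R, where all medians lie near 0.

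Markers of other cell types were read beside these changes. The T and NK cell list (7 genes), the B cell list (5), the granulocyte list (8) and the erythroid list (5) each summed to at most 1.96 RPKM in any library. Among 4 stem and progenitor markers, Cd34 was at 11.8 and 13.4 RPKM in -R, at 0.929 and 0.849 in +R and at 2.53 and 2.05 in R+LE, and the other 3, Kit included, were under 0.5 RPKM in both libraries of every condition. Stromal and osteoblast markers (9 genes) summed to 15.0 to 16.3 RPKM in -R, 9.87 to 13.8 in +R and 8.03 to 9.44 in R+LE, and Col1a1 was at 3.37 to 8.32 RPKM over all libraries. The level of Cd34 fell with RANKL, as did Ccnd2, and the part of progenitors in the members' values was not tested.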

How the data were processed

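RNA from 6 mouse BMM libraries was analysed, 2 for each of -R, +R and R+LE, with groups and replicate numbers taken from the sample labels. The authors deposited RPKM values per gene, under column titles that say FPKM, for reads on mm10 counted on exons without regard to strand. The study's methods name TopHat as the aligner, and the submitters' processing notes list HISAT2, HOMER and DESeq2, so the aligner is uncertain. Versions are not given in the sources used here. Labels and methods also differ on the strain of mice and the culture plates. The data hold no other columns of per-sample values.

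Whole reads were recovered from the RPKM steps and transcript lengths (100% of the values checked were whole within 0.1), which gave the depth. RPKM values are not counts, so log2(RPKM + 0.5) was fitted with limma 3.58.1 in R 4.3.3, for genes averaging 0.5 RPKM or more, with all 6 libraries, the 3 group means and a variance trend. Adjusted p-values (Benjamini-Hochberg) cover all 11595 genes tested. A gene passed at an adjusted p below 0.05, and rises and falls of at least 2-fold are counted separately. Fold changes on this scale understate those of low genes. With 2 libraries against 2, an exact permutation test of a gene cannot give a p under 0.333. Data were simulated on +R against -R with the same noise setting for every gene. Of genes changed by 2-fold up 94% were found, and of those changed to 0.5 of their level 85.7%. Only 49 or 50 genes were changed to each level, whereas in the data 23.9% of genes passed as higher and 21.5% as lower. The shares found may therefore not hold for the data. The calls held 49, 47, 42 and 49 genes changed to 4, 2, 0.5 and 0.25 times their level. Beside them stood 24 unchanged genes, out of 11590 genes, a larger share of the calls than the 0.05 aimed at.

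The members, the role lists, the other pathway genes and the markers were chosen with earlier results of these data known. The text names all 46 members and, of the other pathway genes, in each comparison the 3 that rose most and the 3 that fell most among those that passed. In 17 alternatives the pseudocount was 0.1 or 1, the filter was dropped or set to 1 RPKM, the variance trend was dropped, groups outside the comparison were left out, values were centred on the median or quantile-normalized, Rn45s was left out of the depth, voom was run on the recovered reads, the replicate number was added as a block, and each library was left out. Exons were compared with GENCODE's annotation of the same build, where 17 members share bases with another gene, and 5 have a pseudogene named after them. Motifs were searched in RefSeq's promoter table. Tables were handled with pandas 2.3.3 and numpy 2.4.6 in Python 3.11.15, and figures drawn with matplotlib 3.10.9.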

Additional observations from a re-analysis of the deposited data

How the results depend on the processing

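Of the members that passed, 28 of 33 in +R against -R, 2 of 5 in R+LE against +R (Ccnd1 and E2f2) and 20 of 27 in R+LE against -R passed under all 17 alternatives. The number higher in R+LE than in +R was 5, but 2 with no filter and 3 in a fit of only the compared groups. Quantile normalization gave 1 lower member, Mcm7, and 1 higher by 2-fold in that comparison. The number lower by 2-fold in R+LE against -R went from 2 to 1 under median centring, quantile normalization and Rn45s left out of the depth. With each library left out, the number higher in R+LE against +R was 2 to 5, the number lower 0 to 1, and the number higher by 2-fold 0 to 1, and the number lower by 2-fold in R+LE against -R was 1 to 2. The number higher by 2-fold with RANKL was 11 to 16, lowest without the first -R library. The calls of R+LE against -R that did not pass under every alternative were those of Cdkn1a, Ccne2, Foxm1, Rrm1, Rrm2, Tyms and Ccna2. With quantile normalization Pcna was higher in R+LE than in +R (0.43). Differences near 0 changed sign. With each library left out, the log2 fold change of Ccnd2 in R+LE against +R ran from -0.039 to 0.053 and that of Ccnd1 in R+LE against -R from -0.031 to 0.066. The causes were not tested.

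The labels do not say that replicate numbers mark a shared batch, and deviations of same-numbered libraries correlated at -0.05, 0.11 and 0.25, so the numbers were not taken as a pairing. With the replicate number as a block, 28 members were higher with RANKL, 5 were higher in R+LE against +R and 27 were higher in R+LE against -R. A planned comparison of protein sequences was not run. The fewest reads on a member in a library were 181, for Ccnd2.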
